A study of Arabidopsis thaliana with 30 samples.

Results

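The KNOX homeobox genes of Arabidopsis were followed through 20 lists of chromatin immunoprecipitation (ChIP-seq) peaks. They were chosen by locus identifier, 8 of the 27770 nuclear protein-coding and miRNA genes of the annotation, with 4 in class I and 4 in class II. Class I comprised STM (AT1G62360, SHOOT MERISTEMLESS), KNAT1 (AT4G08150, also called BREVIPEDICELLUS or BP), KNAT2 (AT1G70510) and KNAT6 (AT1G23380). Class II comprised KNAT3 (AT5G25220), KNAT4 (AT5G11060), KNAT5 (AT4G32040) and KNAT7 (AT1G62990). The window of a gene was its body plus 1000 bases upstream.

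All material was 14-day-old seedlings, and each group had 2 replicate peak lists. BRM-GFP, the GFP-tagged ATPase BRAHMA of SWI/SNF chromatin remodelling complexes, was precipitated in brd1/2/13 seedlings, which carry mutations in BRD1, BRD2 and BRD13, and in seedlings that the series design describes as brm-1. BRD1-GFP was studied in brd1 and BRD2-GFP in brd2 seedlings by the same design text, which names no background for BRD13-GFP or for BRD2-dBromo-GFP, a BRD2 form whose name marks a change in its bromodomain. Acetylation of histone H4 at lysine 5 (H4K5ac) and lysine 8 (H4K8ac) was profiled in brd1/2/13 and wild-type (WT) seedlings, although the antibody field of those samples names anti-GFP, as it does for the tagged proteins. Whether the brd1/2/13 BRM-GFP line also carried brm-1, and which promoters drove the transgenes, was not given in the sources used here. Whole seedlings mix meristem, leaf, stem and root cells, so a weak peak in every cell and a strong peak in few cells cannot be told apart.

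KNOX proteins are TALE-class homeodomain transcription factors that bind DNA as heterodimers with BELL homeodomain proteins. Class I genes are expressed mainly in the shoot meristem and its boundaries, where they keep cells undifferentiated, raise cytokinin and repress gibberellin synthesis. In developing leaves they are silenced by Polycomb proteins and, for some of them, by AS1 and AS2. Class II genes are expressed broadly in differentiating organs, and KNAT7 is known for its part in secondary cell wall formation. SWI/SNF complexes slide or evict nucleosomes, and bromodomains bind acetylated lysines of histone tails.

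The sequence under the summit, the base with most reads in a peak, is shown for 5 sites, each as 151 bases around the median summit, because tagged proteins or acetylation peaked there and the results return to them. The places are the promoter of KNAT4, an intron of the paralogues KNAT6 and KNAT2, and the first coding exon of KNAT3 and KNAT4. The sequences are from the RefSeq assembly TAIR10.1, in which every peak of the TAIR10 lists fell within the chromosome lengths, read 5′ to 3′ on the strand of the gene. Capitals mark matches to any of the 6 motifs searched on both strands, which were GAGAGA (purine repeat), TGACAG (a KNOX and BELL core), CACGTG (the G-box core), GGCCCA (a site II element), AAACCCTA (a telobox) and TATAAA (core promoter element).
KNAT4 promoter site, chr5:3509601-3509751, plus strand: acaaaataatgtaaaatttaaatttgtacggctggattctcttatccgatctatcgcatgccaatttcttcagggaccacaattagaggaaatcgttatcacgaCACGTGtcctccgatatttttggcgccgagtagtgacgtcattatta
KNAT4 coding exon 1 site, chr5:3510599-3510749, plus strand: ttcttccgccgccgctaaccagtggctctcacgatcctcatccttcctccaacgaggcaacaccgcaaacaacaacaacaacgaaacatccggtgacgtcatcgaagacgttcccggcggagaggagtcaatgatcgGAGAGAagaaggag
KNAT6 intron 3 site, chr1:8298214-8298364, minus strand: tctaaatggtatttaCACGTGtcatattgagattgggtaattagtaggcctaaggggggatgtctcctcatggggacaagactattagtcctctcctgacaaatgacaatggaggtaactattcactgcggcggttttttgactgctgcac
KNAT2 intron 3 site, chr1:26580506-26580656, plus strand: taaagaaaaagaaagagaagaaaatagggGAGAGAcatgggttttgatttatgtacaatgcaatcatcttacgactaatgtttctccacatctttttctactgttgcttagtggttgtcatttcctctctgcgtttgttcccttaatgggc
KNAT3 coding exon 1 site, chr5:8736329-8736479, plus strand: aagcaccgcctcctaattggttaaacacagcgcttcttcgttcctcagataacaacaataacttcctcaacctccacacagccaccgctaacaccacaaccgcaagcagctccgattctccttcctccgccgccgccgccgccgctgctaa
The KNAT4 promoter site and the KNAT6 intron 3 site each held 1 CACGTG, which occurred in 6.82% of the 15562 windows of that length around the summits of BRM-GFP replicate 1 and in 10.8% of those of BRD13-GFP replicate 1. The KNAT2 intron 3 site, bound by BRD13-GFP, held 1 GAGAGA, which occurred in 26.5% of the 16222 windows around the summits of BRD13-GFP replicate 1. The KNAT4 coding exon 1 site, where acetylation peaked, also held 1 GAGAGA, which occurred in 26.0% of the 20031 windows around H4K5ac summits of WT replicate 1. The KNAT3 coding exon 1 site held none of the 6 motifs. A match states only that the letters occur in the window.

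Peak strength is given as the fold over background at the summit, as the peak caller MACS2 wrote it. The fold and p-value of a peak together returned its read pileup, which came out whole within 0.02 reads for 99.9 to 100% of the peaks solved in each list. The background coverage so obtained was 36.96 and 36.4 reads in the brd1/2/13 BRM-GFP lists, 10.01 and 18.6 reads in the BRM-GFP lists and 24.1 to 38.1 reads in the other lists. The smallest fold called at that background was 1.82 in BRM-GFP replicate 1 and 1.38 to 1.61 in the other lists. A gene without a peak can therefore still carry signal below these values. The lists held 6131 to 20742 peaks, with the fewest in brd1/2/13 BRM-GFP, whose largest q-values were 0.00961 and 0.00997, whereas the other lists reached 0.036 to 0.0499.

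The classes differed in how often they held a peak. Class I genes had a peak in 28 of 80 gene-list pairs, 18 of them at KNAT6, and class II genes in 75 of 80, beside 62.5% of such pairs over all genes. In the 12 lists of GFP-tagged proteins the counts were 21 of 48 for class I and 46 of 48 for class II, beside 57.0% over all genes. Of the 46, 10 were KNAT5 pairs whose summit lay outside the window, and with a summit required in the window the counts were 21 and 36 of 48, beside 49.1% over all genes. In the 8 acetylation lists they were 7 of 32 for class I and 29 of 32 for class II, beside 70.7% over all genes. The share of the gene window lying under peaks had a median of 0% over the class I pairs and 29.4% over the class II pairs. The genes of a class share descent and are not replicates of it, so these counts are a description without a test.

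**Figure D1:**
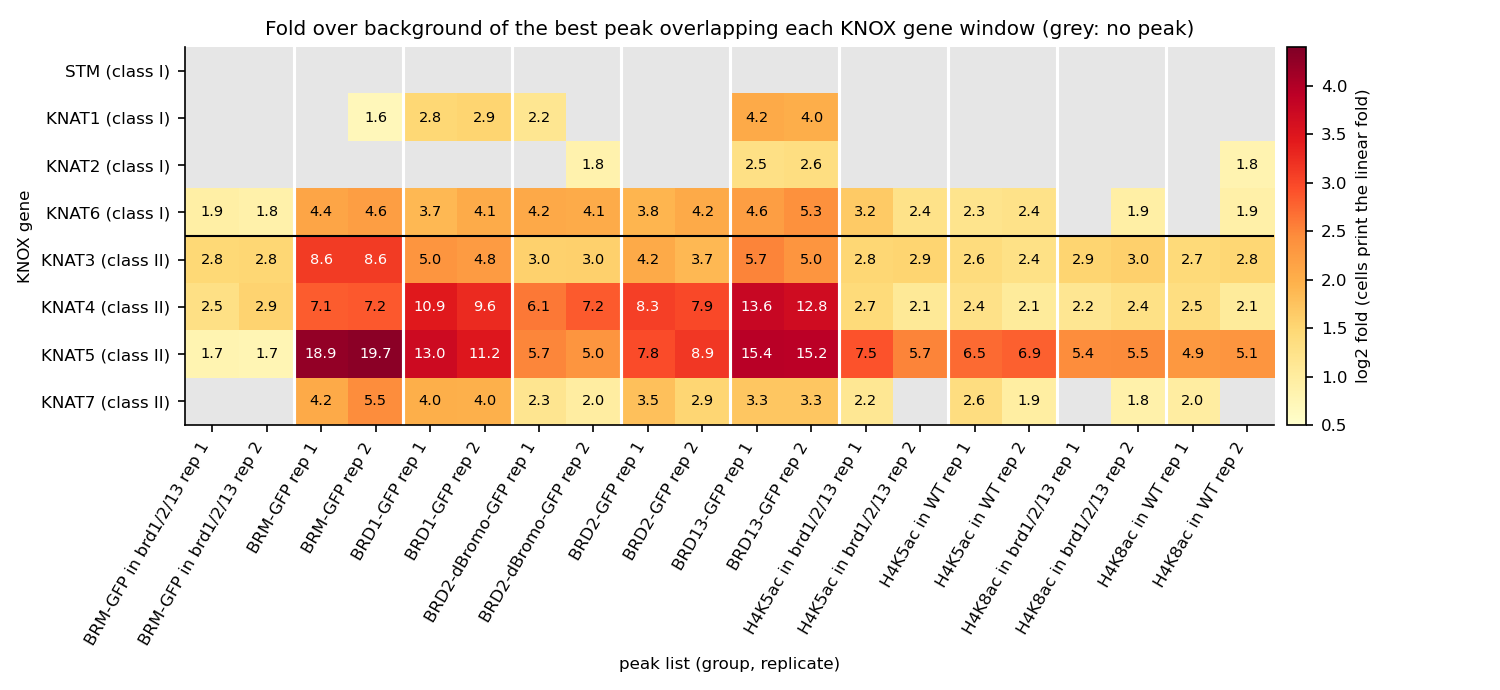
Linear fold over background of the best peak (highest −log10 q) overlapping each of the 8 KNOX gene windows (rows, class I above the line) in each of the 20 lists (columns, 2 replicates per group), coloured on a log2 scale, with grey for no peak. STM was grey throughout, KNAT3, KNAT4 and KNAT5 had a peak in all 20 lists, and the highest value was 19.7 at KNAT5 in BRM-GFP replicate 2.

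A gene counted as bound in a group when a region with a peak of each replicate overlapped its window. For brd1/2/13 BRM-GFP this held for 3 KNOX genes (KNAT6, KNAT3 and KNAT4) and for 20.7% of all genes. BRM-GFP bound 5, which were KNAT6 and all 4 class II genes, against 55.6% of all genes. BRD1-GFP bound those 5 and KNAT1, with 66.0% of all genes bound. BRD2-dBromo-GFP and BRD2-GFP bound the same 5 genes as BRM-GFP, with 62.2% of all genes bound by BRD2-dBromo-GFP and 63.1% by BRD2-GFP. BRD13-GFP bound 7, all but STM, with 55.7% of all genes bound. Thus every class II gene was bound by each of the 5 tagged proteins outside brd1/2/13 BRM-GFP, while class I ranged between 1 and 3 genes of 4. This did not hold with only the best 6129 peaks of every list. BRD1-GFP then bound 3 KNOX genes (30.5% of all genes), BRD2-dBromo-GFP 3 (25.4%), BRD2-GFP 4 (28.3%) and BRD13-GFP 4 (27.7%). KNAT1 and KNAT2 were then bound in no group, KNAT7 by no BRD protein, KNAT3 not by BRD2-dBromo-GFP and KNAT6 not by BRD1-GFP. With a summit in the window required, KNAT5 was not bound by BRM-GFP or any BRD protein.

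For acetylation, H4K5ac marked 4 KNOX genes in brd1/2/13 (KNAT6, KNAT3, KNAT4 and KNAT5), where 71.6% of all genes were marked. In WT it marked those 4 and KNAT7, with 70.2% of all genes marked. H4K8ac marked KNAT3, KNAT4 and KNAT5 in each genotype, with 65.3% of all genes marked in brd1/2/13 and 65.4% in WT. No class I gene had an H4K8ac region, and KNAT6 was the single class I gene with an H4K5ac region. Without replicate 1 of each genotype, 5 KNOX genes were marked by H4K8ac in brd1/2/13 and 5 in WT. The shares of all genes at that setting were 68.5% in brd1/2/13 and 68.4% in WT.

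STM, which maintains the shoot meristem, lies on chromosome 1 at 23058582 to 23062063 on the minus strand and has 4 exons. None of the 20 lists had a peak in its window. The nearest peak ended or began 1300 to 9390 bp from the window, with a median of 1656 bp. In all 8 acetylation lists that nearest peak lay in the neighbouring gene AT1G62350 on the 3′ side. Its folds there were 5.23 and 4.70 for H4K5ac in brd1/2/13, against 5.64 and 5.58 in WT, so the absence at STM did not extend to its neighbour. The nearest peaks of brd1/2/13 BRM-GFP lay 9390 and 9389 bp away on the 5′ side, with folds of 2.11 and 2.12. At BRM-GFP replicate 1 the nearest peak was 9131 bp away, while replicate 2 had a peak of fold 1.99 at 1677 bp.

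KNAT1, which shapes the stem and pedicels, lies on chromosome 4 at 5147699 to 5151159 on the minus strand. All its peaks were narrow, 299 to 637 bp wide, and had their summit in the 5′ UTR in exon 1, between positions 52 and 134, counted in bases from the gene start with downstream positive. BRD13-GFP was highest there with folds of 4.16 and 4.04, which exceeded 60.8% and 59.1% of the peaks in those lists. BRD1-GFP had folds of 2.79 and 2.88, from pileups of 108 and 75 reads. BRD2-dBromo-GFP had a peak in replicate 1 alone, at 2.23, and neither BRD2-GFP list had any. BRM-GFP had a peak in replicate 2 alone, with a fold of 1.63 from 31 reads, which is below the smallest fold called in replicate 1. No acetylation list and no brd1/2/13 BRM-GFP list had a peak at KNAT1.

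KNAT2 lies on chromosome 1 at 26576486 to 26582879 on the plus strand. Its most reproducible peak was in intron 3, where BRD13-GFP had folds of 2.46 and 2.55 with summits at positions 4095 and 4090. BRD2-dBromo-GFP replicate 2 had a peak of 1.79 at position 4111, in the same intron. BRD13-GFP also had folds of 2.13 and 2.36 at the edge of the window, with summits at positions −1020 and −1055. The single acetylation peak was H4K8ac in WT replicate 2, with a fold of 1.76 in coding exon 1. Neither BRM-GFP genotype, BRD1-GFP nor BRD2-GFP had a peak at KNAT2.

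KNAT6, the closest paralogue of KNAT2, lies on chromosome 1 at 8297241 to 8302651 on the minus strand and was the exception in class I. It had peaks in 18 of 20 lists, at sites far apart. The strongest lay in intron 3 toward the 3′ end, with summits between positions 4280 and 4432 in all 12 GFP lists, the same numbered intron in which KNAT2 was bound. At this site BRM-GFP had folds of 1.92 and 1.83 in brd1/2/13 seedlings, against 4.36 and 4.65 in BRM-GFP seedlings. BRD13-GFP had the highest folds, 4.63 and 5.26, and BRD1-GFP had 3.69 and 4.13. BRD2-dBromo-GFP had 4.22 and 4.14, against 3.78 and 4.17 for BRD2-GFP. The folds of the 4 BRD groups thus spanned a narrow range, 3.69 to 5.26.

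Intron 3 of KNAT6 held further separate peaks in single replicates. Between positions 3330 and 3435 the folds were 4.16 in BRD13-GFP replicate 2, 2.63 in BRD2-dBromo-GFP replicate 1 and 1.99 in BRM-GFP replicate 2. BRD13-GFP replicate 1 had a peak of 1.95 at position 1522. A site weaker than the main intron 3 site lay at the start of KNAT6, with summits between positions 1 and 271 in 7 of 12 GFP lists. BRM-GFP had no peak there in brd1/2/13 seedlings, against folds of 3.36 and 3.16 in the BRM-GFP seedlings. BRD2-dBromo-GFP likewise had none, against a fold of 1.99 in BRD2-GFP replicate 1. A separate peak past the gene end, with summits between positions 5714 and 5804, was called in both BRD2-dBromo-GFP and both BRD2-GFP lists. Its summits lay inside the neighbouring gene MENG and outside the KNAT6 window. The window of MENG shared the intron 3 regions as well. The stretch was not particular to BRD2. The intron 3 peak itself ran past the gene end in both BRD1-GFP lists, to positions 6100 and 6010, and in BRD13-GFP replicate 2, to 6063. Acetylation was confined to the start, apart from H4K5ac in WT replicate 1, which also had a peak of 1.79 at position 4630. H4K5ac there had folds of 3.17 and 2.40 in brd1/2/13 and 2.30 and 2.37 in WT. H4K8ac was called in replicate 2 of each genotype, at 1.91 in brd1/2/13 and 1.86 in WT.

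KNAT3 lies on chromosome 5 at 8735944 to 8738601 on the plus strand and had a peak in all 20 lists. Over its start BRM-GFP had folds of 2.77 and 2.83 in brd1/2/13 and 8.63 and 8.63 in BRM-GFP seedlings. The summits of those 4 peaks lay in coding exon 1, at positions 637 and 579 in brd1/2/13, against 457 and 463. The BRD summits lay closer to the start, between positions 107 and 337, with folds between 2.53 in BRD2-dBromo-GFP replicate 2 and 5.70 in BRD13-GFP replicate 1. Acetylation summits lay between positions 428 and 819, all in coding exon 1, and so ran through the range of the BRM-GFP summits.

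KNAT3 had further sites on either side. An upstream site with summits between positions −991 and −800 was a peak of its own in 9 of 12 GFP lists. It was missing from both brd1/2/13 BRM-GFP lists, against folds of 2.998 and 2.96 in BRM-GFP, and in BRD13-GFP replicate 1 it was merged with the start peak. In BRD2-dBromo-GFP replicate 2 this upstream peak, at 2.996, was the better one, above 2.53 at the start. A site past the gene end, with summits between positions 2701 and 2768, was called in 7 of 8 BRD lists and in no BRM-GFP or acetylation list.

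KNAT4 lies on chromosome 5 at 3509833 to 3513741 on the plus strand and had a peak in all 20 lists. The best summit fell within a short stretch of promoter in all 12 GFP lists, between positions −182 and −100. BRD2-dBromo-GFP replicate 1 had weaker summits as well, of 2.11 at position 1472 in intron 1 and 1.91 at position 3634 in the 3′ UTR. The peaks around the promoter summits were wide, 3274 and 3587 bp for BRM-GFP and up to 4105 bp for BRD13-GFP. BRM-GFP had folds of 2.47 and 2.91 in brd1/2/13, against 7.09 and 7.20 in BRM-GFP seedlings. BRD13-GFP averaged 13.2 ± 0.571, BRD1-GFP 10.2 ± 0.939, BRD2-dBromo-GFP 6.64 ± 0.727 and BRD2-GFP 8.14 ± 0.286 (SD, n = 2 each). All 8 BRD peaks exceeded at least 96.9% of the peaks in their list. In brd1/2/13 the BRM-GFP peak was 1610 and 1488 bp wide, and an extra small peak with summits at positions −1174 and −1135 was called separately.

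Acetylation at KNAT4 lay elsewhere, with its best summits between positions 691 and 978 in coding exon 1 and none in the promoter. H4K5ac had folds of 2.67 and 2.11 in brd1/2/13 and 2.42 and 2.05 in WT. H4K8ac had folds of 2.21 and 2.44 in brd1/2/13 and 2.53 and 2.06 in WT. These were low within their lists, exceeding 10.04% to 37.1% of the peaks, whereas the best factor peaks at the same gene exceeded at least 90.8% of the peaks in their list, or 73.3% and 85.1% in brd1/2/13 BRM-GFP. Weaker H4K8ac summits stood further into KNAT4, at position 2577 in brd1/2/13 replicate 1, with a fold of 2.0004, and at position 2397 in WT replicate 2, with 1.52. The ranges of the best factor and best acetylation summits did not overlap at KNAT4 or at KNAT6. At KNAT6 this held for the best peaks only. Its weaker factor summits at the start, between positions 1 and 271, overlapped the acetylation summits there, between 139 and 324.

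**Figure D2:**
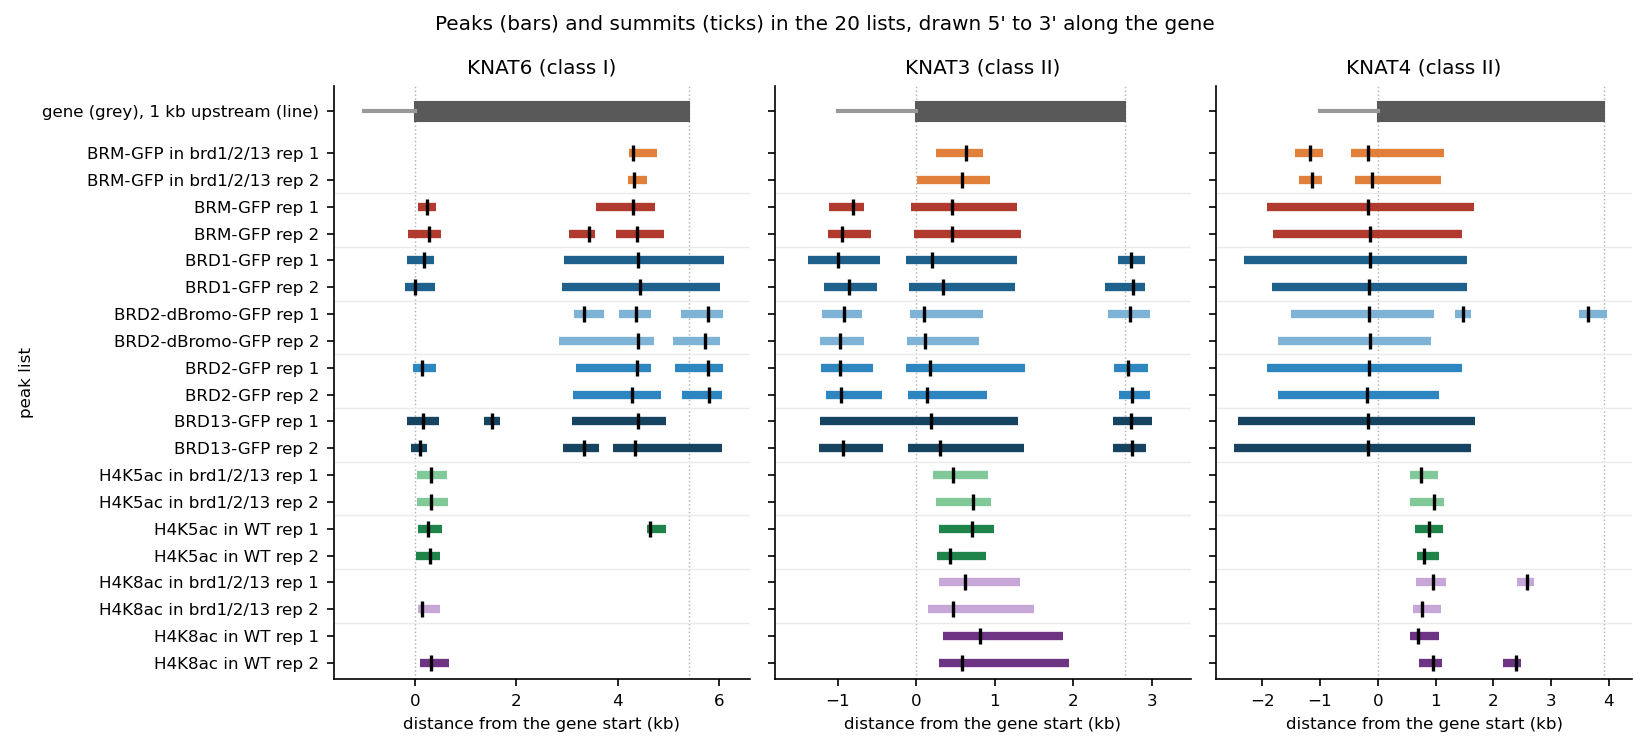
Peaks (bars) and summits (ticks) along KNAT6, KNAT3 and KNAT4 in the 20 lists (rows), with distance from the gene start in kb on the horizontal axis and the gene body as a grey box. KNAT6 was bound in intron 3 and at the start, and at KNAT4 the best summit of each list of tagged proteins stood between −182 and −100 bp and that of each acetylation list between 691 and 978 bp.

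KNAT5 lies on chromosome 4 at 15493989 to 15496381 on the plus strand, downstream of HSL1, AT4G32020 and AT4G32030. In all lists of tagged proteins other than brd1/2/13 BRM-GFP it was reached by the end of a single peak, 9225 to 10008 bp wide, that also covered AT4G32020 and AT4G32030. The BRM-GFP region measured 9705 bp, and 17 of 13638 BRM-GFP regions were wider. Its folds were 18.9 and 19.7 in BRM-GFP, above 99.955% and 99.959% of the peaks in those lists. BRD13-GFP had 15.4 and 15.2 and BRD1-GFP 13.0 and 11.2. BRD2-dBromo-GFP had 5.66 and 5.02, against 7.76 and 8.85 for BRD2-GFP.

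None of those summits lay in the KNAT5 window. They stood between positions −8071 and −1958, and all but BRD2-dBromo-GFP replicate 2 lay inside AT4G32030. These values therefore describe the neighbourhood, and a summit of a tagged protein within the KNAT5 window was seen in the brd1/2/13 BRM-GFP lists alone. In brd1/2/13 the wide region was called as separate peaks, with folds of 4.11 and 4.81 over AT4G32030, 2.81 and 2.63 further upstream, and 1.74 (position 414) and 1.70 (position −448) near the KNAT5 start. The last pair did not overlap each other, so KNAT5 had no brd1/2/13 BRM-GFP region of its own.

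Acetylation at KNAT5 was placed in the gene itself, in coding exon 1, with summits between positions 292 and 417. H4K5ac had folds of 7.46 and 5.71 in brd1/2/13 and 6.55 and 6.91 in WT, the highest among the KNOX genes. H4K8ac had 5.41 and 5.52 in brd1/2/13 and 4.95 and 5.06 in WT, above 97.2% to 98.5% of the peaks in those lists. Separate acetylation peaks stood over AT4G32030 and AT4G32020, so the acetylated stretches were discrete where the bound stretch was continuous.

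**Figure D3:**
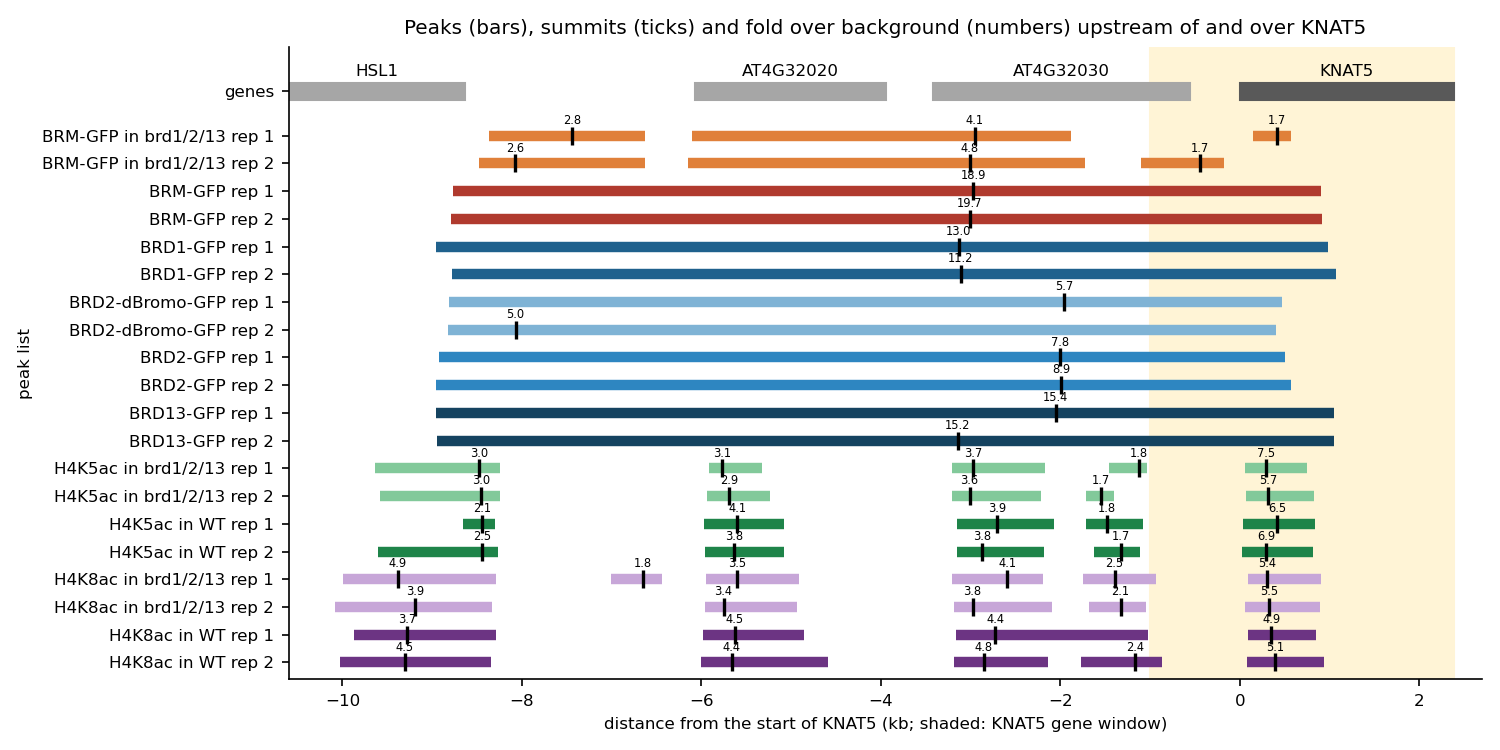
Peaks (bars), summits (ticks) and folds (numbers) in the 20 lists over KNAT5 and its upstream neighbours, with distance from the KNAT5 start in kb and the KNAT5 window shaded. BRM-GFP and the BRD lists show 1 peak across the stretch with the summit outside the shaded window, brd1/2/13 BRM-GFP shows 3 separate peaks per list, and each acetylation list has a summit between 292 and 417 bp in KNAT5.

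KNAT7 lies on chromosome 1 at 23337167 to 23340692 on the plus strand and had a peak in 15 of 20 lists. Neither brd1/2/13 BRM-GFP list had a peak, against folds of 4.18 (45 reads) and 5.46 (106 reads) in BRM-GFP, whose summits lay in coding exon 1 at positions 352 and 333. BRD1-GFP had folds of 3.99 and 3.97 at the start and BRD13-GFP 3.27 and 3.26. At the start BRD2-dBromo-GFP had 2.27 and 1.98, against 2.80 and 2.86 for BRD2-GFP. BRD summits fell on either side of the start, between positions −354 and 334. A further peak past the gene end, toward NRS/ER, a nucleotide-rhamnose synthase gene, reached the window in both BRD1-GFP lists, BRD2-dBromo-GFP replicate 2 and BRD2-GFP replicate 1. In BRD2-GFP replicate 1 that peak, at 3.46, was the best one overlapping the window.

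KNAT7 was the class II gene with the least acetylation. H4K5ac was called in replicate 1 of brd1/2/13, at 2.19, and in both WT lists, at 2.58 and 1.94. H4K8ac was called in 1 list of each genotype, at 1.84 in brd1/2/13 replicate 2 and 1.97 in WT replicate 1. All 5 summits lay in coding exon 1, between positions 327 and 552.

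**Figure D4:**
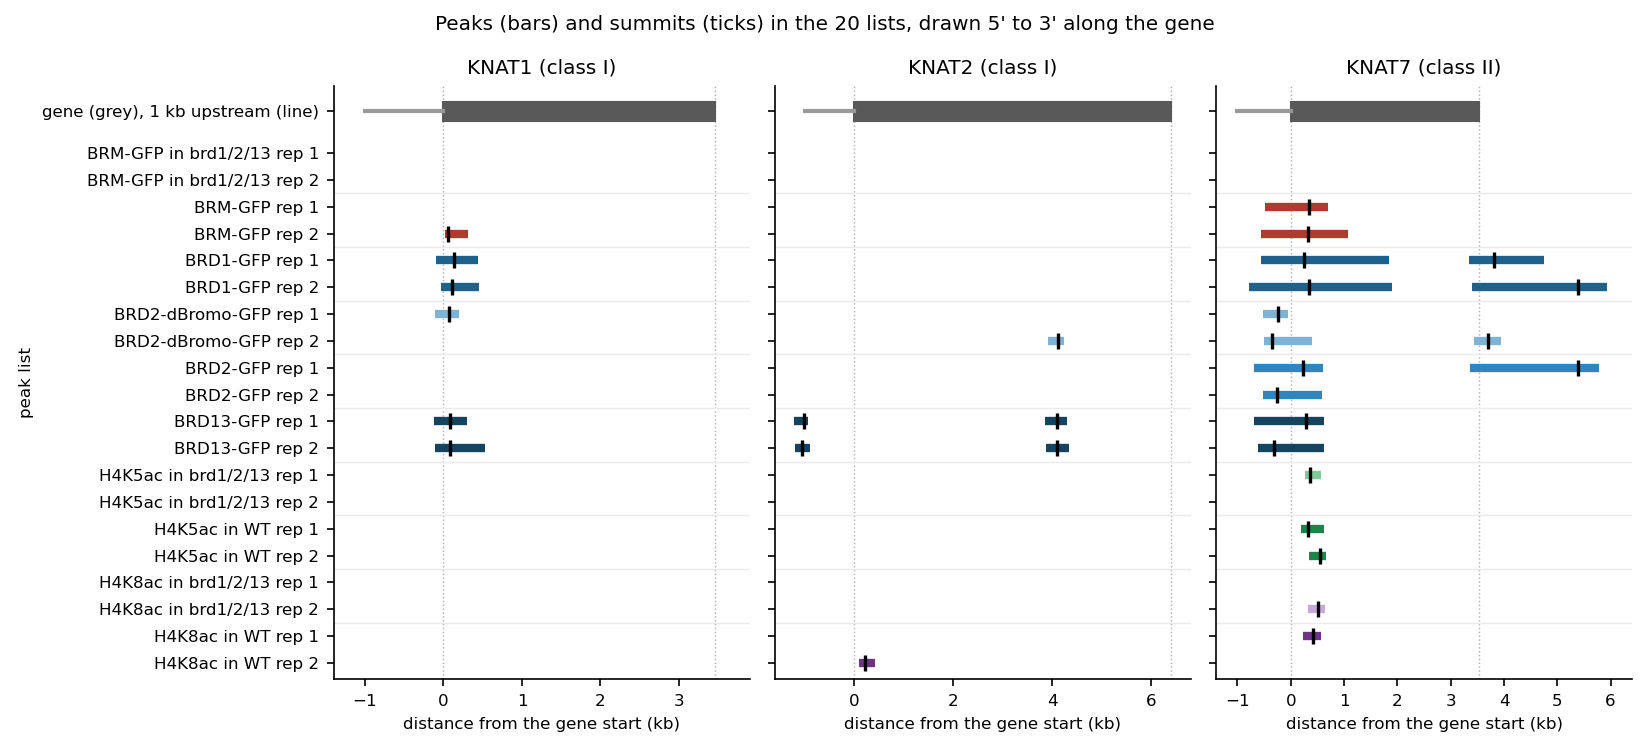
Peaks (bars) and summits (ticks) along KNAT1, KNAT2 and KNAT7 in the 20 lists (rows), with distance from the gene start in kb and the gene body as a grey box. KNAT1 peaks clustered between 52 and 134 bp, KNAT2 was bound mainly by BRD13-GFP near 4095 bp, and KNAT7 was bound at its start by BRM-GFP and every BRD group but not in the brd1/2/13 BRM-GFP lists.

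BRM occupancy in brd1/2/13 seedlings was set beside that in BRM-GFP seedlings. A BRM-GFP region was called lost when neither brd1/2/13 list had an overlapping peak, partly retained when 1 had, and retained when both had. A gene took the best outcome of its regions. KNAT7 was the 1 KNOX gene with all its BRM-GFP lost, and 41.1% of the 15432 BRM-GFP bound genes were lost. No KNOX gene was partly retained, against 15.1% of bound genes. KNAT6, KNAT3, KNAT4 and KNAT5 were retained, against 43.8% of bound genes. With a fold of 2 or more required, KNAT6 also counted as lost, and without BRM-GFP replicate 1 KNAT1 did, for 2 lost genes in either setting. The shares of bound genes given above do not refer to these settings.

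Retention was not uniform within a gene. KNAT6 kept its intron 3 region and lost the one at its start, and KNAT3 kept its start region and lost the upstream one. In each gene the kept site had the higher BRM-GFP folds. They were 4.36 and 4.65 against 3.36 and 3.16 at KNAT6, and 8.63 and 8.63 against 2.998 and 2.96 at KNAT3. Whether the sites differ beyond a drop common to both was not tested. KNAT5 was retained through peaks that lay mainly over its neighbours. The 3 lost regions were set beside the smallest folds called in brd1/2/13, 1.607 and 1.603. The BRM-GFP folds of both replicates were 2.60 and 3.40 times the larger of these at KNAT7. They were 2.09 and 1.97 times at the KNAT6 start and 1.87 and 1.84 times upstream of KNAT3. Lowered by the median log2 shift over genes with a peak in all 4 lists, −1.35, the KNAT7 folds became 1.64 and 2.14. The KNAT6 start then had 1.32 and 1.24 and the upstream KNAT3 site 1.17 and 1.16, below the smallest folds called. That shift leaves out genes without a brd1/2/13 peak, so it can understate the drop over all bound genes. Whether KNAT7 fell by more than that drop was not tested. Complete loss and a drop to below the smallest folds called cannot be told apart.

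Strength was then compared where a gene had a peak in all 4 lists. Each log2 fold was centred on the median over all such genes in its list, the group means were compared by an exact two-sided permutation test, and the smallest p that 2 against 2 lists can give is 0.333. No difference here could therefore pass a 0.05 threshold. These p-values refer to these lists only and measure neither the size of a difference nor the spread between samples.

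Before centring, BRM-GFP was lower in brd1/2/13 at all 4 KNOX genes, as it was at 99.8% of the 5575 genes with a peak in all 4 lists, whose median shift was −1.35. The uncentred log2 differences were −1.27 at KNAT6, −1.62 at KNAT3, −1.41 at KNAT4 and −3.49 at KNAT5. After centring, KNAT3 was lower in both brd1/2/13 lists by a further −0.27 (0.28 and 0.22 in brd1/2/13, 0.54 and 0.51 in BRM-GFP, exact p = 0.333). KNAT5 was also lower, by −2.13 (exact p = 0.333), and no other of the 5575 genes had a lower centred difference. That value set the small peaks at KNAT5 in brd1/2/13 against the wide peak in BRM-GFP. With the best peak over the whole BRM-GFP region, a setting chosen after seeing the data, it was −0.76 (exact p = 0.333). The lists overlapped at KNAT6, with a difference of 0.088 (exact p = 0.667), and at KNAT4, with −0.061 (exact p = 1). Over all genes, the centred lists did not overlap at 36.7% in the higher direction and at 32.0% in the lower direction, beside 0 and 2 of the 4 KNOX genes.

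BRD2-dBromo-GFP was compared with BRD2-GFP at 5 KNOX genes. Both BRD2-dBromo-GFP lists were lower at KNAT3, by −0.22, at KNAT5, by −0.46, and at KNAT7, by −0.40, on the centred log2 scale (exact p = 0.333 each). All genes gave 29.4% lower and 29.9% higher. The KNAT5 peaks had their summits upstream of the window, and the best KNAT7 peak of BRD2-GFP replicate 1 had its summit in NRS/ER. With the summit in the window the KNAT7 difference was −0.28, and KNAT5 had no value. Leaving out BRD2-GFP replicate 1 gave −0.14 at KNAT3. The KNAT3 value also mixed sites, because the best peak of BRD2-dBromo-GFP replicate 2 was the upstream one and the other lists used the start peak. At the KNAT3 start the folds were 2.99 and 2.53 for BRD2-dBromo-GFP, against 4.17 and 3.69 for BRD2-GFP. The lists overlapped at KNAT4, with −0.13 (exact p = 0.667). KNAT6 was higher in both BRD2-dBromo-GFP lists, by 0.25 (exact p = 0.333), but without centring its lists overlapped, with a difference of 0.074. The median shift over all 15796 genes was −0.17, and without centring 50.8% of genes were lower and 12.2% higher.

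H4K5ac was compared at 4 KNOX genes. KNAT3 was higher in both brd1/2/13 lists, by 0.11 on the centred scale (exact p = 0.333), against 21.8% of all genes higher and 23.0% lower. That value was 0.052 without WT replicate 2 and 0.17 without WT replicate 1. KNAT6 (0.17), KNAT4 (0.019) and KNAT5 (−0.12) overlapped between genotypes (exact p = 1 each). Without centring KNAT6 was also higher in both brd1/2/13 lists, as were 35.0% of all genes, with 13.0% lower. H4K8ac was higher in both brd1/2/13 lists at KNAT3, by 0.079, and at KNAT5, by 0.11 (exact p = 0.333 each), against 20.1% of all genes higher and 21.7% lower. The KNAT3 value was 0.038 without WT replicate 1 and 0.12 without WT replicate 2. KNAT4 overlapped, with a difference of 0.0052 (exact p = 1). At no KNOX gene in these tests were both brd1/2/13 lists below WT. The 3 differences without overlap were each smaller than the SD of the centred differences over all genes, which was 0.19 for H4K5ac and 0.18 for H4K8ac.

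**Figure D5:**
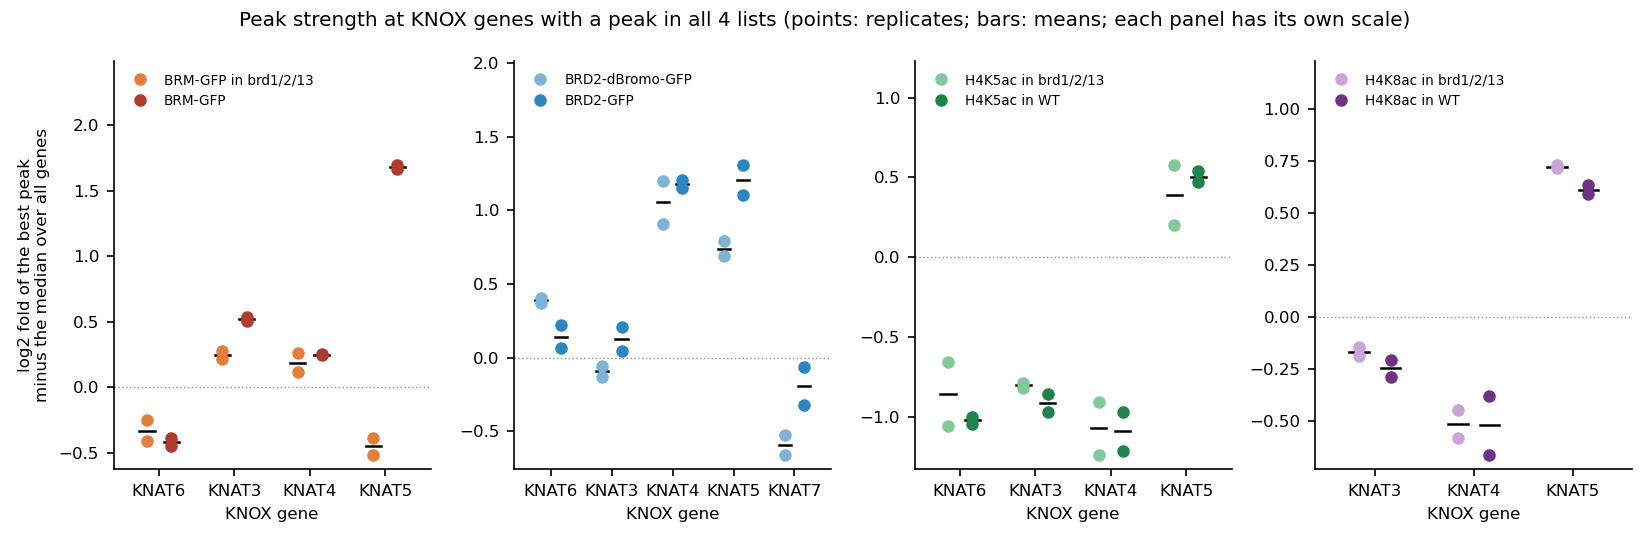
Log2 fold of the best peak minus the list's median over all genes (vertical axis, own scale per panel) for KNOX genes with a peak in all 4 lists, with points for replicates and bars for means. The panels compare BRM-GFP in brd1/2/13 with BRM-GFP, BRD2-dBromo-GFP with BRD2-GFP, and H4K5ac and H4K8ac in brd1/2/13 with WT, and the widest gap is −2.13 at KNAT5 for BRM-GFP.

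Promoters were searched for the same 6 motifs, from 250 bases before to 50 bases after the gene start. GAGAGA, the GA repeat that plant GAGA-binding proteins recognise, occurred in 4 of 4 class I promoters and 1 of 4 class II promoters (KNAT3), against 29.3% of 27769 promoters. TATAAA occurred in 3 of 4 class I and 2 of 4 class II promoters, against 52.1% of all. CACGTG occurred in the KNAT4 promoter alone, at position −128, against 7.63% of all. TGACAG, the core bound by KNOX and BELL homeodomains, occurred in none of the 8, against 7.04% of all. GGCCCA and AAACCCTA were also absent from the 8, against 15.4% and 6.28% of all.

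The BELL genes encode the partners of the KNOX proteins. Of the 13 listed, 3 were bound by brd1/2/13 BRM-GFP (BLH1, BLH3 and BLH4), against 10 by BRM-GFP, and 11 were bound by each of the BRD proteins. The shares of all genes were 20.7% for brd1/2/13 BRM-GFP, 55.6% for BRM-GFP and 55.7% to 66.0% for the BRD proteins. BEL1, which acts in ovule development, had folds of 1.88 and 1.83 in brd1/2/13 BRM-GFP and 7.90 and 7.10 in BRM-GFP, and its brd1/2/13 peaks did not overlap each other, so it did not count as bound. BLH9 (annotated RPL), the BELL partner of KNAT1 in stem growth, had no peak in brd1/2/13 BRM-GFP, against 3.27 and 2.86 in BRM-GFP. ATH1, also a partner of class I proteins, had no brd1/2/13 peak either, against 2.36 and 2.55. At BLH9 and ATH1, complete loss and a drop to below the smallest folds called in brd1/2/13, 1.607 and 1.603, cannot be told apart. BRM-GFP was lost at 3 of the 10 bound BELL genes, partly retained at 3 and retained at 4, beside 41.1%, 15.1% and 43.8% of all bound genes in that order. BLH5 and BLH8 were bound in no group of tagged proteins.

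The other genes followed were 10 regulators and targets of class I KNOX genes. BRM-GFP bound 0 of them in brd1/2/13, against 6 in BRM-GFP seedlings, beside 20.7% and 55.6% of all genes. Of the 6, BRM-GFP was lost at 4 and partly retained at 2, beside 41.1% and 15.1% of all bound genes. AS1, whose MYB protein silences some class I genes in leaves, had a fold of 1.92 in brd1/2/13 replicate 2. It had no peak in replicate 1, against 4.72 and 5.62 in BRM-GFP. AS2, its partner, had no brd1/2/13 peak, against 2.91 and 2.19. The boundary genes BOP1 (4.18 and 2.91), BOP2 (4.36 and 3.47) and CUC1 (2.91 and 2.76) had BRM-GFP peaks that were likewise absent from both brd1/2/13 lists. The smallest folds called in brd1/2/13 were 1.607 and 1.603, and the median log2 shift over genes with a peak in all 4 lists was −1.35. Complete loss and a drop to below the smallest folds called cannot be told apart at AS2 or these boundary genes. CUC3 was partly retained. IPT7, a cytokinin synthesis gene induced by STM, was bound by the BRD proteins, with 3.604 and 4.08 in BRD13-GFP, but not by BRM-GFP. GA20OX1, a gibberellin synthesis gene repressed by class I proteins, was bound by no tagged protein in both replicates.

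Likeness to other genes was measured as the mean absolute difference over 20 lists between the percentiles of the best peaks, with 0 for no peak. The nearest genes to KNAT4 were CKX5, a cytokinin oxidase (2.99 percentile points), and SPL8 (3.38). The nearest to KNAT5 were AT5G01390 (2.76) and PFD3, a prefoldin subunit (2.9996). KNAT3 was nearest to AT5G01210 (5.75) and AT3G10180 (6.41), KNAT6 to AT4G38950 (6.55) and AT1G61540 (7.43), and KNAT7 to WRKY36 (6.70) and BOP2 (7.58). No KNOX gene was among these. Between KNOX genes the smallest distances were 3.22 for STM and KNAT2, both nearly without peaks, and 9.35 for KNAT1 and KNAT2. KNAT6 was closer to KNAT7 (17.8), KNAT3 (23.9) and KNAT4 (24.2) of class II than to any other class I gene, of which KNAT1 was nearest at 32.5. KNAT7 likewise was closer to each class I gene than to any other class II gene. Its class I distances ran between 17.8 (KNAT6) and 29.6 (STM), and its nearest class II gene was KNAT3 at 31.6.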

How the data were processed

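Peak lists of 20 immunoprecipitated samples, 2 for each of 10 groups, were analysed. The 10 input samples had no list used here. Each sample has its own list. Tools credited by the submitters' processing notes are MACS2 2.1.1, deepTools and Bowtie (settings not given), with TAIR10 as the build. The authors deposited for each peak a score (10 times −log10 q), the fold over background (a ratio) at the summit, and −log10 p and q-values. Peaks of brd1/2/13 BRM-GFP stop at a lower q-value than the others, which affects their number.

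Coordinates were matched to the TAIR10.1 annotation, and largest peak ends lay within the chromosome lengths. Plastid peaks were left out. Peaks overlapping a window by 1 base or more counted, and the best peak had the highest −log10 q. Pileups were solved from fold and p for −log10 p below 100, with SciPy 1.17.1, NumPy 2.4.6 and pandas 2.3.3. Replicates share no stated culture, and whether they came from separate plantings was not given. Code was tested on simulated peaks. Genes named were the 8 KNOX genes, 13 BELL genes, 10 regulators and targets, genes sharing a region, and the 2 protein-coding genes more than 10000 bp away that were most alike, for members with peaks in at least 10 lists. Members and lists were chosen with earlier results of these data known. Alternatives were: a peak of either replicate, a summit in the window, the gene body, 2000 bp upstream, 500 bp around the start, q of 0.01, fold of 2, equal numbers of peaks, no centring, percentiles, other definitions of the start, a replicate block and leaving out each replicate. Protein sequences were not used here.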

Additional observations from a re-analysis of the deposited data

How the results depend on the processing

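With equal numbers of peaks in every list (the best 6129), fewer KNOX genes were bound or marked: 3 for BRD1-GFP, 3 for BRD2-dBromo-GFP, 4 for BRD13-GFP, and 1, which was KNAT5, for each acetylation group. The shares of all genes in these groups at that setting were also lower, 23.7% to 30.5%. Counting a peak of either replicate gave H4K8ac at 5 KNOX genes in brd1/2/13 and 6 in WT, beside 71.6% and 71.5% of all genes. Leaving out a replicate gave 3 to 5 for H4K8ac in brd1/2/13 and 4 to 5 in WT, the higher value without replicate 1 in each. The shares of all genes with a replicate left out were 68.1% to 68.5%. KNOX genes with BRM-GFP lost numbered 2 within 500 bp of the start and 2 at a fold of 2 or more, where KNAT6 joined KNAT7. Leaving out BRM-GFP replicate 1 also gave 2, through KNAT1, and the range over single lists left out was 1 to 2. No share of bound genes lost is given at these settings, so these counts cannot be set beside all genes. Without centring, the BRM-GFP difference at KNAT6 was −1.27, and in percentiles −51.5. Small differences changed sign with single lists left out. At KNAT4 they ran between −0.13 and 0.011 for BRM-GFP, −0.27 and 0.019 for BRD2-dBromo-GFP (0.38 in percentiles), −0.14 and 0.18 for H4K5ac and −0.14 and 0.15 for H4K8ac. For H4K5ac they ran between −0.034 and 0.36 at KNAT6 and between −0.31 and 0.074 at KNAT5. Taking the summit nearest the start moved the BRD median to −1020 at KNAT2, −6 at KNAT7 and 165 (against 4385.5) at KNAT6, where the BRM median over both genotypes moved to 2288.5 (against 4316). As a paired analysis, a replicate block gave the same mean differences (−0.27 at KNAT3 for BRM-GFP) with an exact sign p of 0.5, the smallest that 2 pairs can give, so it changed no call, and nothing pairs the replicates across groups but their number. No strength difference with the summit in the window could be had at KNAT5 for tagged proteins. The background coverage limits calls to the smallest folds given above. The cause of these changes was not tested.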
